A study of Homo sapiens with 6 samples.

Results

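Mitosis and chromosome segregation were represented by 46 genes, which were chosen by name from the cell biology of the G2 and M phases and found by their symbols among the 21776 genes of the count table. All 46 were listed, and all 46 passed the filter on low counts that left 14255 genes for testing. The genes were measured by RNA sequencing in SCC25, an established cell line derived from a squamous cell carcinoma of the mouth, labelled as wild type (WT). The sample labels name SCC25, the count columns name only HNSCC, and a legend in the paper gives SCC9, so the line rests on the labels. Cells were kept for 12 h either under hypoxia (1% O2) or under normoxia (air in a humidified incubator), with 3 libraries per condition. Hypoxia replicates 1, 2 and 3 held 30186813, 36076088 and 32272716 counts, and normoxia replicates 1, 2 and 3 held 37278703, 29637189 and 29981208. The labels did not state whether the replicates were separate cultures, so the p-values measure the spread between these libraries, which may be technical.

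The libraries carried the transcripts of squamous epithelial cells. Of 10 epithelial markers, 9 passed the filter, and the mean levels under hypoxia and normoxia were 111 and 126 CPM (counts scaled to a common library total with TMM factors) for the basal keratin KRT5, 249 and 317 CPM for EPCAM and 68.3 and 62.7 CPM for TP63. KRT14 did not pass the filter. The 9 markers did not move together: 4 were lower and 4 higher under hypoxia by edgeR's quasi-likelihood test, with log2-fold changes from -4.12 for KRT6A to 1.99 for ITGB4, and all 4 that were higher rose by 1 or more on the log2 scale. Among markers of other cell types, PTPRC, CD3E and LYZ of leukocytes, PECAM1, VWF and KDR of endothelium and COL1A2, COL3A1 and DCN of fibroblasts did not pass the filter either. The fibroblast collagen gene COL1A1 passed it at 18.0 CPM under hypoxia and 3.76 CPM under normoxia, and CD68 at 31.0 and 33.1 CPM. The remaining markers in the count table, CDH5 of endothelium and PDGFRB of fibroblasts, were below 1 CPM on average in both conditions. Of 5 leukocyte markers, 4 were in the count table. By edgeR's quasi-likelihood test, COL1A1 (log2-fold change 2.26, adjusted p = 1.0e-09) and CDH5 (1.14, adjusted p = 0.025) were higher under hypoxia. The part of these markers in the results was not tested. As a check of the labels, 15 of 15 genes of the hypoxia response were higher under hypoxia by edgeR's quasi-likelihood test, with a median log2-fold change of 2.71.

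Entry into mitosis is driven by CDK1 bound to cyclin B, which CDC25 phosphatases switch on and which works with Polo-like and Aurora kinases. Condensin then compacts the chromosomes, kinetochores attach them to spindle microtubules, and the spindle assembly checkpoint holds back the anaphase-promoting complex until every chromosome is attached. Many of these genes are transcribed mainly in G2 and M through promoters that carry a cell cycle genes homology region (CHR), so their transcript levels in a culture are commonly read as a measure of proliferation.

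Under hypoxia, the mitosis genes were lower. All 46 passed edgeR's quasi-likelihood test (adjusted p under 0.05) with a lower level and 0 with a higher level, and a single gene, ANLN, lost this call when upper-quartile factors replaced TMM, with a log2-fold change of 0.028. Over the 46 genes, log2-fold changes had a median of -1.16, against 0.023 for all genes tested. A large part of the transcriptome differed between the conditions: 77.8% of the genes tested passed the test, 38.5% lower and 39.2% higher. A log2-fold change of -1 or less was found for 31 of the 46 genes, against 10.5% of all genes tested. The libraries of the conditions did not overlap in any of the 46 genes, with hypoxia below normoxia each time, which held for 39.9% of all genes tested. Of all genes tested, 7.53% had a log2-fold change below the median of the 46.

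**Figure D1:**
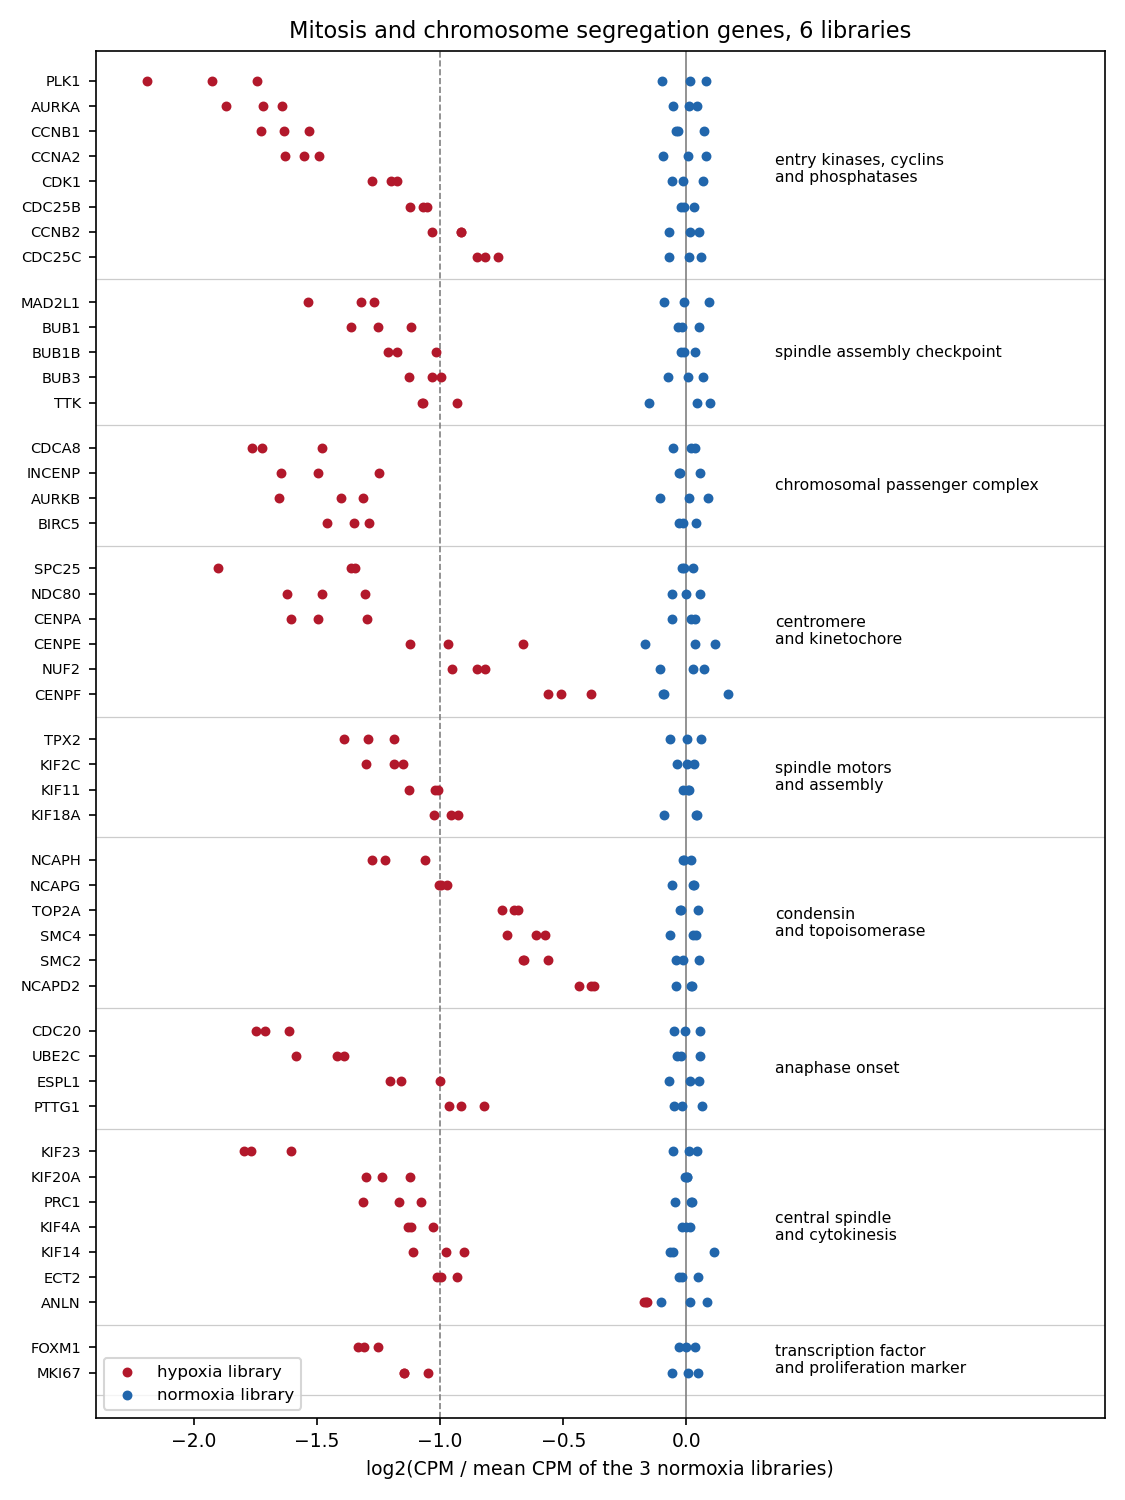
Level of each mitosis gene in each of the 6 libraries, as log2 of its CPM over the mean CPM of the 3 normoxia libraries, grouped by role and ordered by log2-fold change. Red points are hypoxia libraries, blue points are normoxia libraries and the dashed line marks a log2 ratio of -1. The hypoxia points lie left of the normoxia points for all 46 genes at this scaling, farthest for PLK1 and nearest for ANLN, whose fitted direction turned with upper-quartile factors.

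The shift between the conditions was also seen in sums over the genes, to which abundant genes contribute most. The summed level of the 46 genes was 1325, 1247 and 1260 FPKM (fragments scaled by gene length and library total) in the 3 hypoxia libraries, in the order of their numbers, and 2714, 2743 and 2713 FPKM in the 3 normoxia libraries. Their share of all counts was 0.514%, 0.496% and 0.490% under hypoxia and 0.960%, 0.968% and 0.980% under normoxia. The spread within a condition was small beside this gap: the median over the 46 genes of the SD of log2 CPM was 0.084 between the hypoxia libraries and 0.051 between the normoxia libraries. Hypoxia replicate 2 held the lowest hypoxia value for 28 of the 46 genes and hypoxia replicate 1 the highest for 28. In bulk RNA, fewer cells in G2 and M and less of these transcripts per cell cannot be told apart.

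**Figure D2:**
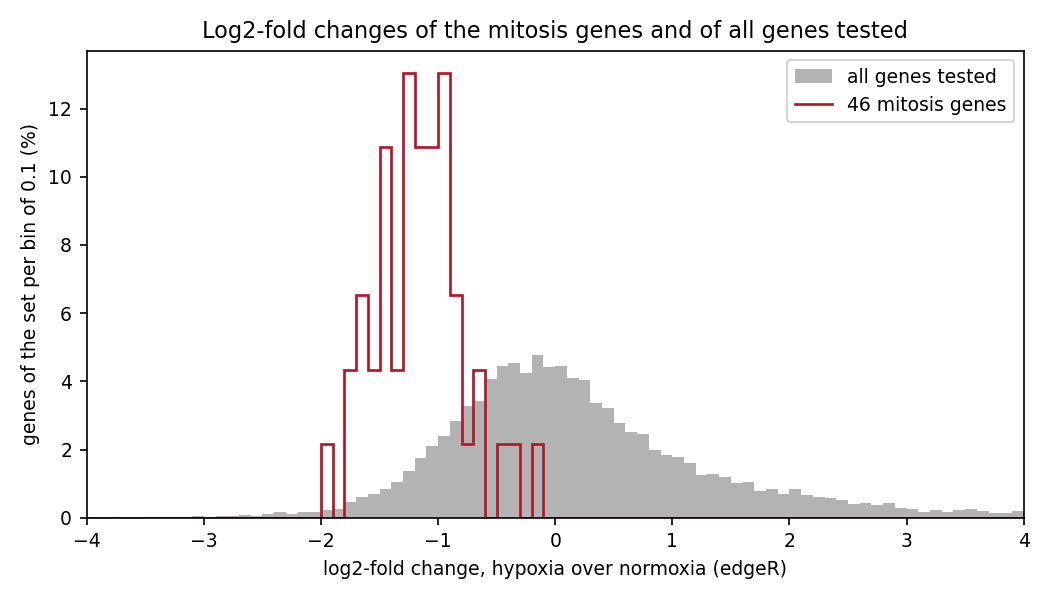
Share of genes per bin of 0.1 in the log2-fold change of hypoxia over normoxia, for all 14255 genes tested (grey) and for the 46 mitosis genes (red outline). The axis is drawn from -4 to 4, which leaves out the ends of the grey distribution. The red outline lies between -1.95 and -0.17, while the grey distribution has its median at 0.023; with upper-quartile factors ANLN moved to 0.028.

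The decreases ranged over more than the fit's error. As a share of the normoxia mean, the hypoxia mean CPM was lowest for PLK1 (26.0%), had a median of 44.8% over the 46 genes and was highest for ANLN (89.2%). It was under 50% for 31 genes. The middle of the range was narrow, with log2-fold changes of -1.46 and -0.97 at the lower and upper quartile, and the standard errors ran from 0.049 for NCAPD2 to 0.110 for SPC25.

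The promoters of the 46 genes were compared with those of all genes. As the genes were chosen by name, the motif shares describe this list, whatever its change under hypoxia. A RefSeq table of promoters (GRCh38.p14), with 250 bases before and 50 after each annotated start, held 39 of the 46 genes and 27305 genes in all. AURKA, BUB3, TTK, BIRC5, TPX2, UBE2C and FOXM1 had no entry. The 4 kinds of motif searched on both strands, of which none contains the letters of another, were the CHR (TTTGAA or TTCGAA), the CCAAT box (CCAAT), an E2F-like site (TTTGGCGC, TTTCGCGC or TTTCCCGC) and the core of a hypoxia response element (ACGTG or GCGTG). The stretches of 120 bases just before the start are given on the strand of the gene, with matches to the CHR and the CCAAT box on either strand in capitals. PLK1 and KIF23 were shown as the largest decreases with a CHR match. The others were added after the matches were seen. CDC20 was shown for CCAAT boxes on both sides of the CHR match, and CCNB2 for repeated CCAAT boxes before it. ANLN was shown for a CHR match in the gene that fell least. CCNB1 was shown for CCAAT boxes without a match to the CHR spellings searched. Other spellings of the CHR were not searched.
PLK1: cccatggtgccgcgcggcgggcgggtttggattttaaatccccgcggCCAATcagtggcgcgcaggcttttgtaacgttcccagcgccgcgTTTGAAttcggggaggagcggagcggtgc
KIF23: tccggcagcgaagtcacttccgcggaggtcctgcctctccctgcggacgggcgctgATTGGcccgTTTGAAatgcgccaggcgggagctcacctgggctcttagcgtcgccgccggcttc
CDC20: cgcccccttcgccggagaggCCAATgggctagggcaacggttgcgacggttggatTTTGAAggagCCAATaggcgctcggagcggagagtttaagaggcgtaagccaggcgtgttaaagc
CCNB2: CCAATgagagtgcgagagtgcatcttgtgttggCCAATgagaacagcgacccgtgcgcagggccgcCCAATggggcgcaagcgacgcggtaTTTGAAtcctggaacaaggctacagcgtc
ANLN: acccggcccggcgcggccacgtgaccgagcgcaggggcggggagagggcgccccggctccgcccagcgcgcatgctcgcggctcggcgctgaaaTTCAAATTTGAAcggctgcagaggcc
CCNB1: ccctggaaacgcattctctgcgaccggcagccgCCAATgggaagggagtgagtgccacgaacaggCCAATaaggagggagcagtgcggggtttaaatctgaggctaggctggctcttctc

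On GRCh38.p14, all on the plus strand, these stretches lie at chr16:23678769-23678888 (PLK1), chr15:69414229-69414348 (KIF23), chr1:43358861-43358980 (CDC20), chr15:59105026-59105145 (CCNB2), chr7:36389742-36389861 (ANLN) and chr5:69167030-69167149 (CCNB1). The CHR was found in the promoters of 31 of the 39 mitosis genes (79.5%, 95% Wilson interval 64.5 to 89.2%) and of 19.5% of all genes in the table. The matches clustered at the start: 23 of the 39 genes (59.0%) had one beginning within the 75 bases before it, as did 4.84% of all genes. In PLK1 the match began 29 bases before the start, in CCNB2 also 29, in KIF23 55 and in CDC20 65. The 8 genes with no match to either spelling were AURKB, CCNA2, CCNB1, CENPE, KIF20A, KIF2C, NCAPH and PTTG1. A CHR of another spelling would not have been found in them.

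The CCAAT box was found in 30 of the 39 promoters (76.9%, against 39.7% of all genes), and 24 genes held both it and the CHR. The E2F-like sites were found in 2 (5.13%, against 3.30%). The hypoxia response element core, a short sequence that is frequent by its length alone, was found in 29 (74.4%, against 52.4%). A match is a description of letters and does not show binding.

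Genes with and without a match to the CHR spellings searched had overlapping decreases. As other spellings were not searched, the genes without a match need not lack a CHR. The part of the CHR in the decreases was not tested. The median log2-fold change was -1.09 for the 31 genes with a match and -1.22 for the 8 without, with ranges from -1.95 to -0.17 with a match and from -1.63 to -0.90 without. ANLN, with a pair of adjacent CHR matches beginning 26 and 20 bases before its start, had the smallest decrease of all. Among tested genes outside the 46 and the related lists described further on, 354 genes had a match within the 75 bases before the start, and 42.9% of them were lower under hypoxia. The same was true of 38.9% of the 9403 genes without a match in the window, and the medians of the log2-fold change were -0.11 and 0.0144.

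The 8 kinases, cyclins and phosphatases that start mitosis were all lower, with a median log2-fold change of -1.39, and 6 of them were lower by 1 or more on the log2 scale. PLK1, the Polo-like kinase that acts from mitotic entry to cytokinesis, was at 48.9, 35.9 and 43.1 CPM in hypoxia replicates 1, 2 and 3 and at 165, 173 and 153 CPM in the corresponding normoxia libraries. The conditions did not overlap, and hypoxia replicate 2 was the lowest of the 6 libraries. Its log2-fold change of -1.95 ± 0.085 (SE) was the largest decrease of the 46 genes (adjusted p = 1.8e-12, edgeR's quasi-likelihood test). AURKA, the kinase of centrosomes and spindle poles that activates PLK1, followed at -1.74 ± 0.061.

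CCNB1, the cyclin that activates CDK1 at mitotic entry, was at 141, 123 and 131 CPM under hypoxia and at 398, 429 and 396 CPM under normoxia. All 3 hypoxia libraries were well below the normoxia libraries, at 32.3% of their mean. The log2-fold change was -1.63 ± 0.059 (adjusted p = 1.9e-13, edgeR's quasi-likelihood test). CCNA2, the S and G2 cyclin, fell by 1.56 on the log2 scale, whereas the other B-type cyclin, CCNB2, fell by 0.95.

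CDK1 itself, the kinase that these cyclins bind, was at 24.1, 22.8 and 24.5 CPM under hypoxia and at 58.0, 54.7 and 53.1 CPM under normoxia. The libraries of each condition lay close together, and the hypoxia mean was 43.0% of the normoxia mean. Its log2-fold change was -1.22 ± 0.066 (adjusted p = 2.3e-11, edgeR's quasi-likelihood test). Of the phosphatases that remove inhibitory phosphates from CDK1, CDC25B fell by 1.08 and CDC25C by 0.81, the smallest decrease of this group. CDC25C was at 10.6, 10.4 and 11.0 CPM under hypoxia and 18.8, 17.8 and 19.5 CPM under normoxia; its lowest count in any library was 324. The conditions did not overlap (log2-fold change -0.81 ± 0.094, adjusted p = 4.4e-07, edgeR's quasi-likelihood test).

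The 5 spindle assembly checkpoint genes, which delay anaphase while kinetochores are unattached, fell by similar amounts, from -1.37 to -1.02 with a median of -1.13. MAD2L1, which binds and inhibits CDC20, was at 43.5, 37.5 and 45.1 CPM under hypoxia and at 108, 116 and 102 CPM under normoxia. The hypoxia libraries were all under 50% of the lowest normoxia library, and the log2-fold change was -1.37 ± 0.071 (adjusted p = 1.3e-11, edgeR's quasi-likelihood test). TTK, the kinase that starts checkpoint signalling, was at 32.6, 35.9 and 32.5 CPM under hypoxia and at 61.6, 70.7 and 73.2 CPM under normoxia. Its conditions were apart as well, with normoxia replicate 1 the lowest of its condition, and the log2-fold change was -1.02 ± 0.072. The checkpoint kinase BUB1 (-1.24), its relative BUB1B (-1.13) and their partner BUB3 (-1.05) lay between.

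The chromosomal passenger complex corrects faulty attachments and later acts at the central spindle. All 4 of its subunits fell by more than 1 on the log2 scale, with a median of -1.45. CDCA8, the subunit borealin, was at 53.6, 45.2 and 44.1 CPM under hypoxia and at 151, 153 and 144 CPM under normoxia. Hypoxia replicate 1 was the highest of its condition and still far below the normoxia libraries, and the log2-fold change was -1.65 ± 0.069 (adjusted p = 9.6e-13, edgeR's quasi-likelihood test). BIRC5, the subunit survivin, was at 72.3, 64.2 and 69.3 CPM under hypoxia and at 173, 182 and 175 CPM under normoxia. It had the smallest decrease of the 4, -1.36 ± 0.057, again with no overlap. The kinase subunit AURKB (-1.45) and the scaffold INCENP (-1.46) had nearly equal changes.

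The 6 centromere and kinetochore genes spread widely, from -1.52 to -0.48, with a median of -1.18. SPC25, a subunit of the NDC80 complex that holds microtubules, was at 16.7, 11.5 and 17.0 CPM under hypoxia and at 42.5, 43.9 and 42.8 CPM under normoxia. Hypoxia replicate 2 stood apart at the low end while the normoxia libraries were nearly equal, and the log2-fold change was -1.52 ± 0.110 (adjusted p = 8.8e-10, edgeR's quasi-likelihood test). CENPF, a large protein of the outer kinetochore, was at 173, 188 and 167 CPM under hypoxia and at 230, 232 and 277 CPM under normoxia. The conditions did not overlap, though normoxia replicate 3 was well above the other two, and the log2-fold change was -0.48 ± 0.070. The centromeric histone CENPA and the complex subunit NDC80 both fell by 1.46, against 0.90 for the kinetochore motor CENPE and 0.87 for NUF2, the direct partner of NDC80.

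Among the 4 spindle genes, TPX2, which activates AURKA and seeds spindle microtubules, was at 262, 227 and 243 CPM under hypoxia and at 597, 622 and 570 CPM under normoxia. Every hypoxia library was below 50% of every normoxia library. The log2-fold change was -1.29 ± 0.059 (adjusted p = 2.6e-12, edgeR's quasi-likelihood test). KIF18A, a motor that dampens chromosome movements, was at 18.4, 19.7 and 19.3 CPM under hypoxia and at 35.3, 38.6 and 38.7 CPM under normoxia. Its libraries were close within each condition and apart between them, with a log2-fold change of -0.97 ± 0.075. The microtubule depolymerase KIF2C (-1.21) and KIF11, the motor that pushes spindle poles apart (-1.05), completed the group, whose median was -1.13.

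The condensin and topoisomerase group changed least of the 9 role groups, with a median of -0.67 and 1 of 6 genes lower by 1 or more. NCAPH, the kleisin subunit of condensin I, was at 46.1, 41.2 and 39.8 CPM under hypoxia and at 95.8, 97.7 and 95.5 CPM under normoxia. All hypoxia libraries were below 50% of the normoxia mean, and the log2-fold change was -1.19 ± 0.062 (adjusted p = 1.5e-11, edgeR's quasi-likelihood test). NCAPD2, a subunit of the same complex, was at 258, 249 and 260 CPM under hypoxia and at 328, 341 and 342 CPM under normoxia. The conditions were apart but much nearer than for NCAPH, with a log2-fold change of -0.40 ± 0.049 (adjusted p = 1.0e-06, edgeR's quasi-likelihood test). The third non-SMC subunit, NCAPG, was close to NCAPH (-0.99), and the ATPase subunits SMC2 (-0.63) and SMC4 (-0.64), shared with condensin II, were close to each other. TOP2A, the topoisomerase that untangles sister DNA, fell by 0.71.

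The 4 genes of anaphase onset had a median of -1.29. CDC20, the activator of the anaphase-promoting complex, was at 131, 119 and 122 CPM under hypoxia and at 399, 416 and 387 CPM under normoxia. Each hypoxia library was far below the lowest normoxia library, and the log2-fold change of -1.69 ± 0.055 had the smallest adjusted p of the 46 genes (6.1e-14, edgeR's quasi-likelihood test). PTTG1, the securin that restrains separase, was at 64.0, 58.0 and 59.9 CPM under hypoxia and at 109, 118 and 112 CPM under normoxia. The libraries did not overlap, and the log2-fold change was -0.90 ± 0.058. UBE2C, the ubiquitin-conjugating enzyme of the complex, fell by 1.46, and the separase ESPL1, which cuts cohesin, by 1.12. PTTG1 has near-identical copies, as has KIF4A, and the assignment of reads between copies by the authors is not known.

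The 7 central spindle and cytokinesis genes held both a strong decrease and the weakest of all. KIF23, the motor of the centralspindlin complex, was at 60.5, 54.0 and 52.9 CPM under hypoxia and at 178, 190 and 185 CPM under normoxia. The hypoxia mean was 30.3% of the normoxia mean, and the log2-fold change was -1.72 ± 0.061 (adjusted p = 1.5e-13, edgeR's quasi-likelihood test). PRC1, the bundler of antiparallel microtubules, fell by 1.18, and ECT2, the exchange factor that activates RhoA at the cleavage furrow, by 0.98. The kinesins KIF20A (-1.22), KIF4A (-1.09) and KIF14 (-0.99) were near the median of all 46 genes. Counting those of the other groups, 8 kinesins were among the 46 genes, with log2-fold changes from -1.72 for KIF23 to -0.90 for CENPE.

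ANLN, the scaffold anillin of the contractile ring, was at 942, 950 and 949 CPM under hypoxia and at 988, 1072 and 1124 CPM under normoxia. The hypoxia libraries were nearly equal and lay just below the lowest normoxia library, at 89.2% of the normoxia mean. The log2-fold change of -0.17 ± 0.054 passed the test (adjusted p = 0.010, edgeR's quasi-likelihood test) but was 0.028 with upper-quartile factors (adjusted p = 0.64), so that its direction depended on the scaling. It also missed the threshold in edgeR's test with a minimum of 10 counts per library (adjusted p = 0.14) and in limma on log2(FPKM + 1) (adjusted p = 0.093). Per gene length, its level was the highest of the 46 genes under hypoxia.

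FOXM1, a transcription factor of G2/M genes, was at 95.2, 90.0 and 91.5 CPM under hypoxia and at 226, 232 and 222 CPM under normoxia. The 3 hypoxia libraries were at about the same level, 40.6% of the normoxia mean, and the log2-fold change was -1.30 ± 0.052 (adjusted p = 6.1e-13, edgeR's quasi-likelihood test). MKI67, whose product Ki-67 coats mitotic chromosomes and is the routine marker of cycling cells, was at 563, 526 and 525 CPM under hypoxia and at 1119, 1170 and 1202 CPM under normoxia. The highest hypoxia library was at just above 50% of the lowest normoxia library. The log2-fold change was -1.11 ± 0.052, close to the median of the 46 genes.

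Per gene length, the 46 genes were abundant transcripts. Their median level was 42.6 FPKM under normoxia and 18.2 FPKM under hypoxia, while the median of all genes tested was 4.71 and 4.78 FPKM. Under normoxia, the highest levels were those of CDC20 (239 ± 6.51 FPKM, SD, n = 3), ANLN, CCNB1, TPX2 and UBE2C, and the lowest that of CDC25C (7.17 ± 0.417 FPKM). Under hypoxia, ANLN (199 ± 3.11 FPKM) stood above CDC20 (76.4 FPKM), TPX2 (70.5 FPKM) and CCNB1 (65.9 FPKM). KIF14 (4.09 ± 0.344 FPKM) and CDC25C (4.21 ± 0.0779 FPKM) were the lowest and did not differ beyond their spread.

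**Figure D3:**
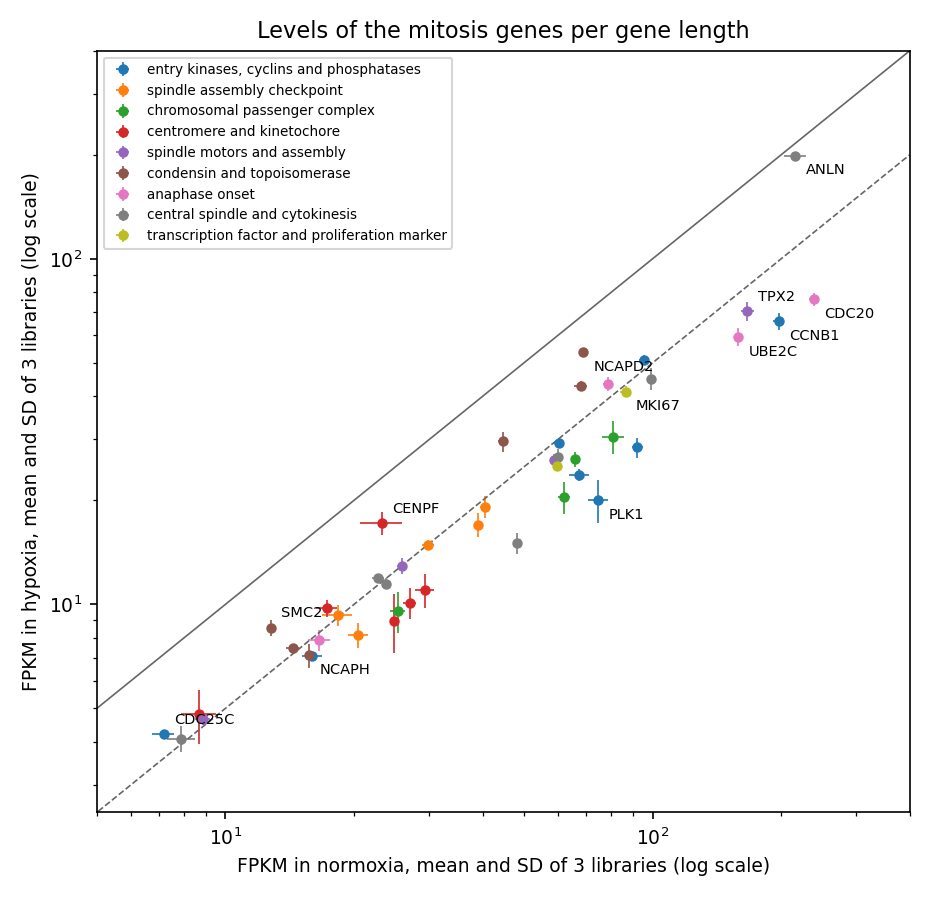
Mean FPKM of each mitosis gene under normoxia (horizontal) and hypoxia (vertical), both on log scales, with the SD of 3 libraries as bars and colors for the role groups. The solid line marks equal levels and the dashed line a hypoxia level of 50% of normoxia. Most points lie along the dashed line, and ANLN (216 and 199 FPKM) lies near the solid line.

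Some closely related genes fell by different amounts, and for these the ratios of FPKM were compared, within complexes and between the B-type cyclins. The pairs were chosen after their values were seen, with the gene that fell more as the numerator, so the direction of the ratios was fixed by the choice and they are given as a description with no test. The ratio of NDC80 to NUF2, which form a dimer in the kinetochore, was 1.33, 1.07 and 0.994 under hypoxia and 1.83, 1.60 and 1.68 under normoxia. NCAPH over NCAPD2 was 0.143, 0.132 and 0.122 under hypoxia and 0.233, 0.229 and 0.223 under normoxia. CCNB1 over CCNB2 was 1.35, 1.28 and 1.26 under hypoxia and 2.12, 2.10 and 1.99 under normoxia.

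Genes of the same processes outside the 46 were taken from 6 further lists with 126 genes, all tested. Of these, 113 were lower under hypoxia and 8 higher, and 5 did not pass edgeR's quasi-likelihood test at an adjusted p of 0.05. The median log2-fold change was -0.89. With upper-quartile factors, which raised the log2-fold changes of all genes by a median of 0.19, the counts were 110 lower and 12 higher. That scaling also moved the share of lower genes among all calls from 49.5% to 39.0%.

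**Figure D4:**
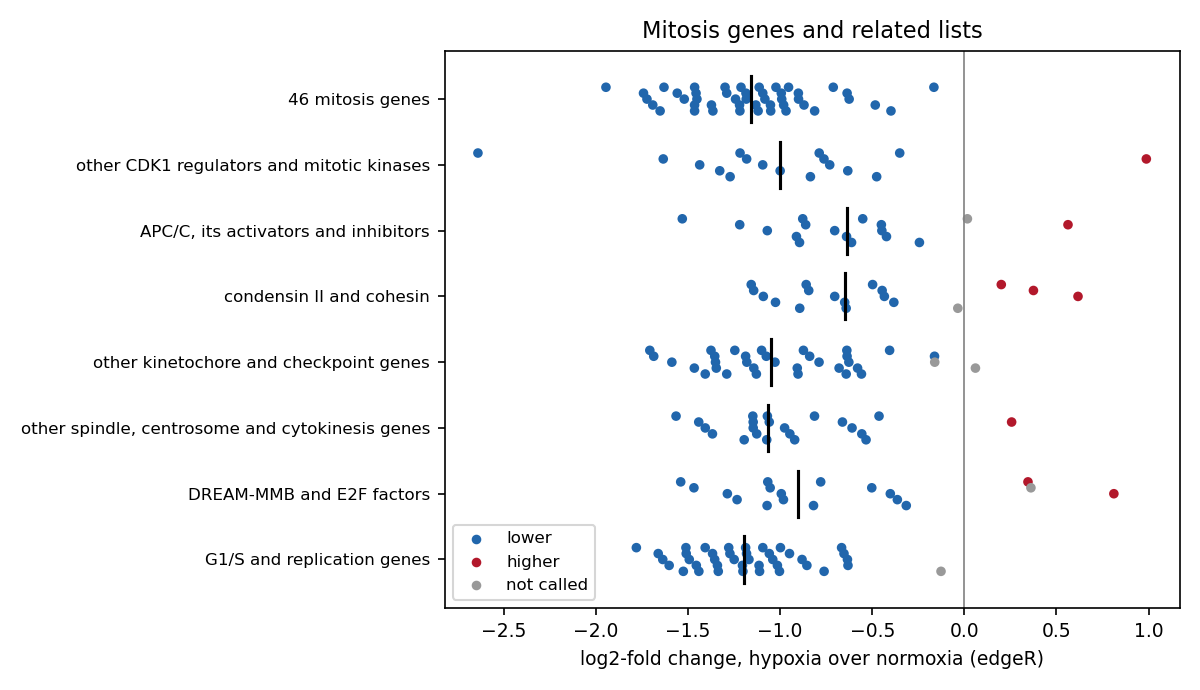
Log2-fold change of hypoxia over normoxia for each gene of the 46 and of the related lists, with blue for lower, red for higher and grey for genes that did not pass the test, and a black bar at the median of each list. The points lie mostly left of 0 in every list, and with upper-quartile factors the median nearest to 0 among the related lists was -0.45 and ANLN of the 46 moved to 0.028.

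Of 17 other CDK1 regulators and mitotic kinases, 16 were lower and AURKC, at under 1 CPM in every library, was higher (0.99 ± 0.403, adjusted p = 0.033, edgeR's quasi-likelihood test). The call of AURKC was lost in the DESeq2 Wald test (adjusted p = 0.072), without a filter on low counts (adjusted p = 0.098) and when any 1 library was left out (adjusted p from 0.052 to 0.15). CDC25A, the phosphatase that acts at both G1/S and G2/M, was at 11.3, 8.74 and 11.9 CPM under hypoxia and at 69.5, 73.4 and 55.6 CPM under normoxia. The conditions were far apart, and the log2-fold change of -2.64 ± 0.113 was a larger decrease than that of any of the 46 genes. Cyclin F (CCNF) fell by 1.63. The inhibitory kinases of CDK1 were lower too, PKMYT1 by 1.27 and WEE1 by 0.76.

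Of 17 subunits, activators and inhibitors of the anaphase-promoting complex, 15 were lower, with a median of -0.64. The largest decreases were those of UBE2S (-1.53), which extends ubiquitin chains, and FBXO5 (-1.22), which inhibits the complex before mitosis. ANAPC16 was higher (0.56 ± 0.061) and ANAPC11 did not pass the test. Of 18 condensin II and cohesin genes, 14 were lower, with a median of -0.65, led by CDCA5 (-1.16), the protector of cohesin known as sororin, and the acetyltransferase ESCO2 (-1.14). Its paralog ESCO1 (0.62 ± 0.101), the cohesin loader NIPBL (0.38 ± 0.064) and the cohesin subunit STAG2 (0.20 ± 0.063) were higher, and MAU2 did not pass the test. The call of STAG2 was lost in edgeR's test without hypoxia replicate 2 (adjusted p = 0.062) and without normoxia replicate 1 (adjusted p = 0.077).

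Of 34 other kinetochore and checkpoint genes, 32 were lower and 0 higher, with a median of -1.05. TRIP13, which remodels MAD2 (-1.71), and SKA3, of a complex that couples kinetochores to microtubules (-1.69), had the largest decreases, and NSL1 and MAD2L1BP did not pass the test. Of 22 other spindle, centrosome and cytokinesis genes, 21 were lower, with a median of -1.06, led by the tubulin TUBB4B (-1.56) and the spindle protein TACC3 (-1.44). NUMA1, which anchors spindle poles and is a nuclear protein in interphase, was higher (0.26 ± 0.050).

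The DREAM complex represses cell cycle promoters, and its MuvB core and the E2F factors also take part in their activation. Of the 18 genes of this list, 15 were lower, with a median of -0.90. E2F1 (-1.54) and E2F2 (-1.47) had the largest decreases. RBL2, the pocket protein p130 of the repressive DREAM complex, was at 78.4, 78.6 and 81.5 CPM under hypoxia and at 45.6, 41.6 and 48.7 CPM under normoxia. All hypoxia libraries were above all normoxia libraries, with a log2-fold change of 0.81 ± 0.063 (adjusted p = 2.5e-09, edgeR's quasi-likelihood test). TFDP2, a dimerization partner of E2F, was higher by 0.35 ± 0.060, and LIN37 did not pass the test. The increases of ANAPC16, ESCO1, NIPBL, NUMA1, RBL2 and TFDP2 kept their sign in every edgeR and DESeq2 fit.

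The list most like the mitosis genes was that of G1/S and replication, with 40 genes. Of these, 39 were lower and 0 higher, 30 by 1 or more on the log2 scale, with a median of -1.19 against -1.16 for the 46 mitosis genes. UHRF1, which maintains DNA methylation, fell by 1.66 and the replication factor GINS3 by 1.78, while the licensing factor CDT1 did not pass the test (-0.13 ± 0.060).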

How the data were processed

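RNA-seq of SCC25 cells was compared between hypoxia and normoxia, 3 libraries each, with the groups taken from the sample labels. The authors deposited counts, whole numbers of reads per gene without normalization, for 21776 genes. The authors also deposited FPKM for the same genes, and for all 46 mitosis genes these followed from the counts, 1 gene length and the library total within 0.01%. The aligner, the counting tool and the use of strand are not given in the sources used here. Whether the counts separate reads of overlapping genes on opposite strands is therefore not known. The submitters' processing notes name the builds GRCm38 and mm10, which are mouse builds, while the gene symbols are human, so coordinates were taken only from the RefSeq promoter table. The totals of 29637189 to 37278703 counts gave each of the 46 genes between 324 and 41638 counts per library. No replicate pair agreed within sampling noise (chi-square of 5.12 to 11.5 per gene), and each library counted as 1 replicate.

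Counts were fitted with edgeR 4.0.16 in R 4.3.3 (TMM, filterByExpr, quasi-likelihood F test with condition as the only term, Benjamini-Hochberg adjustment over the 14255 genes tested, threshold 0.05). The SE is the log2-fold change divided by the square root of F. FPKM levels were used to compare genes. The alternatives were 3 other scalings, DESeq2 1.42.0, 2 other filters on low counts (among them at least 10 counts in every library), an added log2-fold threshold of 1, a block for the replicate number, omission of each library in turn, limma 3.58.1 on log2(FPKM + 1) and log2(FPKM + 0.1) (minimum mean of 1 FPKM, and no minimum), and a narrower window or 1 strand for the motifs. The tests were first run on simulated counts with 200 genes changed 2-fold. edgeR found 184 of the 195 changed genes that passed its filter among 14089 genes, with 4.66% of its calls false. DESeq2 found 168 of the 195, and limma 174 of 174 among 12573 genes.

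The 46 genes, the related lists, the motifs and the tests were chosen with earlier results of these data known. Values in every library were given for the largest and smallest change of each role group, the highest mean FPKM, and CDK1, CCNB1, MKI67 and FOXM1. In each related list, the 2 largest increases and 2 largest decreases with an adjusted p under 0.05 and a mean log2 CPM of at least 1 were named. WEE1, PKMYT1 and the single exceptions within lists were named after their values were seen.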

Additional observations from a re-analysis of the deposited data

How the results depend on the processing

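Of the 46 mitosis genes, 46 were lower under hypoxia in each of the 6 fits that left out 1 library, with medians of the log2-fold change from -1.22 to -1.12, and between 45 and 46 in the other fits. ANLN was the exception: its log2-fold change was 0.028 with upper-quartile factors (adjusted p = 0.64), -0.088 with at least 10 counts in every library (adjusted p = 0.14) and -0.12 by limma on FPKM (adjusted p from 0.093 to 0.11). The median of the 46 genes was -0.97 with upper-quartile factors and -1.08 with the minimum of 10 counts per library. The number lower by 1 or more on the log2 scale ran from 21 with upper-quartile factors to 35 without a filter on low counts.

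When a log2-fold change of at least 1 in size was also required, 2840 of all genes were called higher and 1498 lower, and the called genes fell to 8 of the CDK1 regulators, 3 of the anaphase-promoting complex list, 4 of condensin II and cohesin, 18 of the other kinetochore genes, 12 of the other spindle genes and 7 of the DREAM and E2F list. The CHR was in 61.5% of the promoters when the 250 bases before the start alone were searched, against 17.2% of all genes. On the strand of the gene alone, the CCAAT box was in 41.0% (all genes 23.3%) and the hypoxia response element core in 46.2%. The 95% Wilson interval of the core there was 31.6 to 61.4%, which holds the 36.7% of all genes. In the main search it was 58.9 to 85.4%, above the 52.4% of all genes. With only the bases before the start it was 56.2 to 83.5%, above the 47.4% of all genes.

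No shared deviation was seen between libraries of the same replicate number. Their deviations from the condition means correlated at 0.018, -0.069 and 0.0012. Between libraries of different numbers the correlations ran from -0.069 to 0.066. These values do not show whether the libraries were handled in pairs. With the replicate number as a block, 46 genes were lower, with a median of -1.16, and 5419 of all genes were lower against 5495 without it. AURKC, higher without the block, was not called with it (adjusted p = 0.059, edgeR). The counts of the 46 genes were at least 324 in every library, and an effect of depth was not tested.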
